A study of Mus musculus with 6 samples.

Results

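Transcripts of 10 genes of the unfolded protein response (UPR) of the endoplasmic reticulum (ER) were compared between mouse embryonic fibroblasts (MEFs) that were wild type (WT) or Yme1l-/-. The genes were chosen by name, as loci of the count table that hold one of the symbols Hspa5, Hsp90b1, Calr, Pdia4, Dnajb9, Dnajc3, Sdf2l1, Herpud1, Xbp1 and Edem1. All 10 were found among 51499 loci, each as a locus of its own, and all 10 were among the 13867 loci with enough counts to be tested. Messenger RNA of 3 cultures of each genotype was selected by its poly(A) tail and sequenced. The WT cells carry floxed alleles (Yme1l fl/fl) and the Yme1l-/- cells are labelled as knockout for YME1L, a protease that the inner membrane of mitochondria carries. Cells of both genotypes are embryonic fibroblasts immortalized with SV40 large T antigen. Both lines were expanded as individual clones after transduction with Cre recombinase, and the number of clones behind each genotype is not given, so that genotype and clone cannot be told apart. The p-values measure the spread between cultures, which may be technical. Throughout, ± is the SD for CPM and ratios and the SE for a log2 fold change (Yme1l-/- over WT), with n = 3 per genotype.

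The UPR adjusts the folding capacity of the ER to its load of unfolded protein. The chaperone BiP (encoded by Hspa5) holds the sensors IRE1, PERK and ATF6 inactive until unfolded protein draws it away. ATF6 is then cleaved in the Golgi by the proteases S1P and S2P and IRE1 splices the mRNA of Xbp1, and the resulting transcription factors ATF6 and XBP1 raise ER chaperones and the components of ER-associated degradation (ERAD). PERK phosphorylates the initiation factor eIF2, which favours translation of ATF4, a factor that can also be switched on by eIF2 kinases outside the ER. In fibroblasts the pathway is known for its role in the secretion of collagen and other matrix proteins. The loci counted here add up the spliced and unspliced forms of Xbp1, so that splicing by IRE1 was not measured.

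Fragments counted per library ranged from 33180867 to 34012520 in WT and from 34624075 to 49351107 in Yme1l-/-. Of the 13867 loci tested, 67.7% differed between the genotypes at an adjusted p under 0.05, 33.6% higher and 34.1% lower in Yme1l-/-. Levels are given as CPM, counts scaled to a common library size. For the targeted gene, Yme1l1, WT cultures gave 6327, 6292 and 5968 fragments, Yme1l-/- cultures gave 1327, 1963 and 2067, and the log2 fold change lay between -2.29 and -2.21 over 15 alternative fits. Fragments of the locus thus remained in the Yme1l-/- libraries, and which part of the gene they come from was not tested. Of 10 fibroblast markers, 8 had at least 10 counts in every library, whereas Thy1 and Lum had at most 11 counts. The summed level of this list was 10443 to 11247 CPM in WT and 6803 to 7334 CPM in Yme1l-/-, carried mainly by Fn1, Vim and Col1a2, which were lower, and by Col1a1, which was higher (0.43 ± 0.06). Of the 8 tested, 6 were lower and 1 was higher. The 4 epithelial markers summed to 32.4 to 33.9 CPM in WT, nearly all from Krt18, and to 0.305 to 0.664 CPM in Yme1l-/-. The 5 leukocyte markers summed to 1.63 to 1.82 CPM in WT and 3.52 to 4.07 CPM in Yme1l-/-, mostly from Cd68, with Adgre1 and Cd3e at 0 counts, and the 3 endothelial markers to 0.814 to 1.34 CPM and 1.69 to 2.03 CPM. The part of these shifts in the results on the UPR genes was not tested.

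The promoters of the 10 genes were read first, because the ER stress response element (ERSE), the binding site of ATF6 together with the factor NF-Y, is defined by sequence. RefSeq promoter entries on GRCm38.p6, each from 250 bases before to 50 bases after the gene start, were found for 10 of 10 genes. The ERSE (the box CCAAT and the core CCACG with 9 bases between them, searched on both strands) was present in 4 of them, Hspa5, Hsp90b1, Calr and Dnajc3, and in 0.119% of all 32851 promoter entries. The matches are shown in the orientation of the motif, with its fixed letters in capitals.
Hspa5, 65 to 47 bases before the start: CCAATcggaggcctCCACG
Hsp90b1, 212 to 194 bases before the start: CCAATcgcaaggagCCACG
Hsp90b1, 107 to 89 bases before the start, minus strand: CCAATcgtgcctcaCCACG
Calr, 162 to 144 bases before the start, minus strand: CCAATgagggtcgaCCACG
Dnajc3, 105 to 87 bases before the start: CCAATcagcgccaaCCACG
Herpud1 held the related ERSE-II (ATTGG and CCACG with 1 base between them), which 0.0365% of all entries hold, and on the opposite strand the letters TGATGNAA of a C/EBP-ATF composite site, the kind of element that ATF4 binds, which 3.97% of all entries hold. It was the only gene of the table with both.
Herpud1 ERSE-II, 52 to 42 bases before the start: ATTGGgCCACG
Herpud1 C/EBP-ATF site, 112 to 105 bases before the start, minus strand: TGATGcAA
The UPR element TGACGTGG, a site for XBP1, matched in none of the 10 and in 0.676% of all entries. The core CCACG, which ERSE and ERSE-II contain, was found in 9 of the 10 and in 32.8% of all entries. Only exact matches were counted, so variants of these motifs with other letters were not looked for. Such matches describe the letters in these windows and do not show that a factor was bound.

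**Figure D1:**
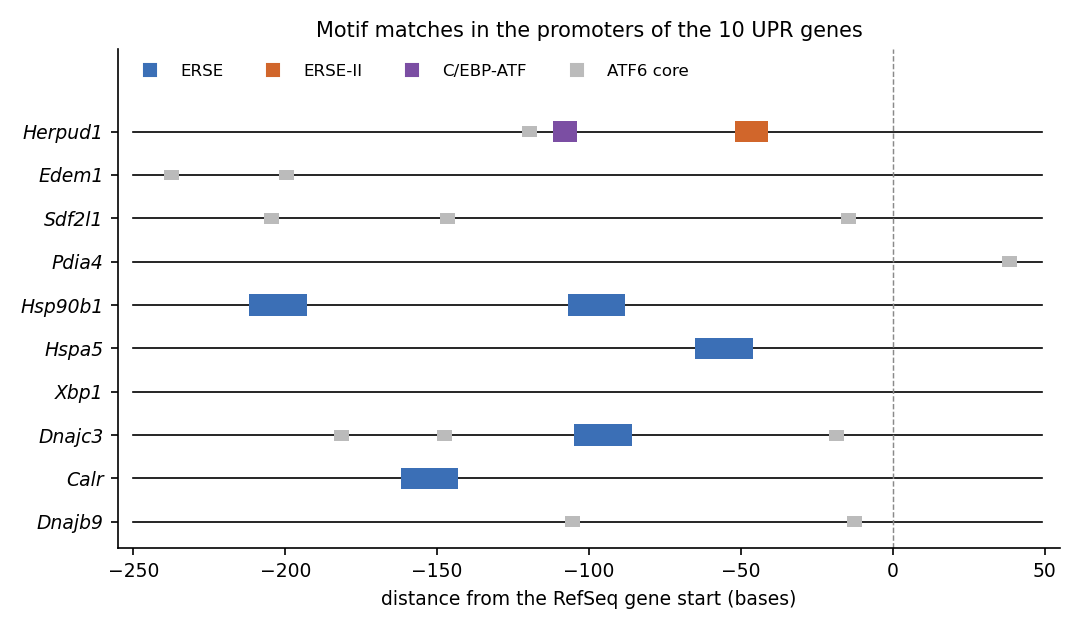
Position of motif matches in the promoters of the 10 UPR genes, with the distance from the RefSeq gene start in bases on the horizontal axis and the genes ordered by log2 fold change (highest at the top). Blue boxes are the ERSE, orange the ERSE-II, purple the C/EBP-ATF site and grey the core that ATF6 contacts. The ERSE lies in Hspa5, Hsp90b1, Calr and Dnajc3, and Herpud1 carries the ERSE-II and the C/EBP-ATF site.

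Of the 10 genes, 6 were lower and 2 were higher in Yme1l-/-, and 2 did not pass the test. The libraries of the genotypes did not overlap for 8 genes, against 71.9% of all loci. With 67.7% of all loci called, 8 calls among 10 genes are close to the background. A change of at least 1.5-fold was called for 3 genes, where 31.8% of all loci reached it. The median log2 fold change of the 10 genes was -0.18, against -0.00 over all loci, and the median size regardless of sign was 0.24 against 0.38. Herpud1 rose the most, Dnajb9 and Calr fell the most, and BiP itself fell slightly. With regional medians removed, Xbp1 fell the most of the 10 genes. Because whole cultures were measured, fewer cells that express a gene and less RNA per cell cannot be told apart.

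**Figure D2:**
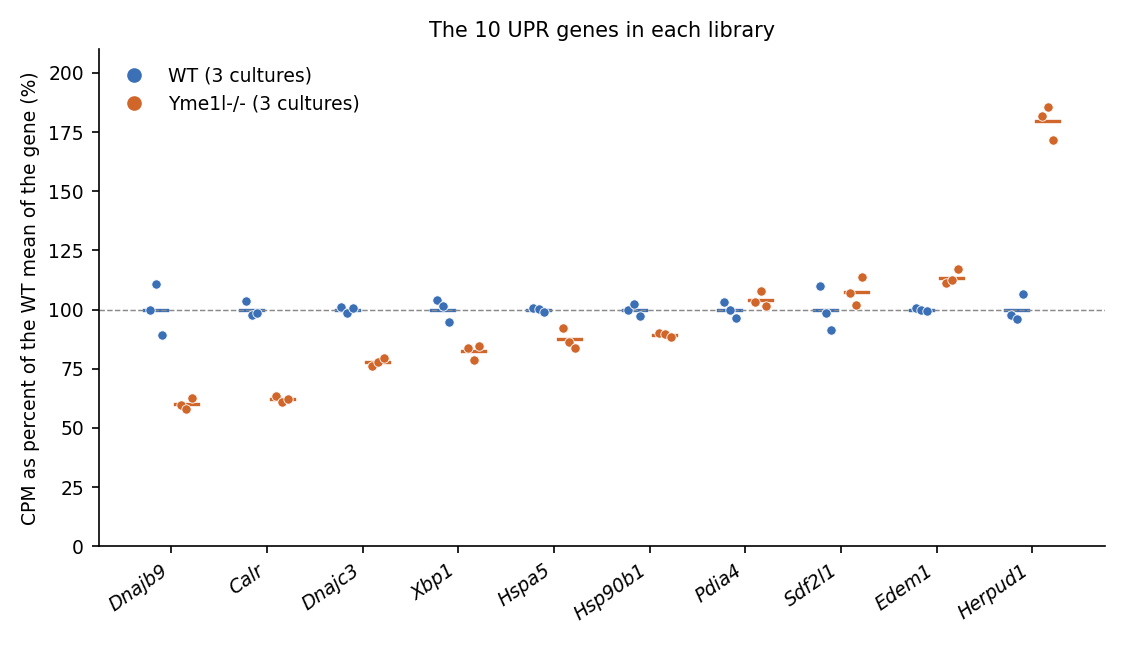
CPM of the 10 UPR genes in each library, as a percentage of the WT mean of the same gene, with a point for each of 3 WT (blue) and 3 Yme1l-/- (orange) cultures and a bar for the mean. The libraries did not overlap for 8 genes, and the Yme1l-/- mean ran from 60.1% of WT for Dnajb9 to 179.6% for Herpud1.

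Levels between genes were compared per transcript length, using the FPKM that the authors combined into 1 value per genotype, for which no replicate error was given. In WT the order was Calr (690 FPKM), Hsp90b1 (428 FPKM) and Hspa5 (417 FPKM), then Pdia4 (89.8 FPKM), and the other 6 genes lay below Pdia4, down to 4.91 FPKM for Dnajb9. The abundant chaperones of the ER lumen therefore stood well above the regulators and ERAD components. The order of the first 4 genes was the same in Yme1l-/-. Herpud1 was at 14.6 FPKM in WT, below Edem1, Dnajc3 and Xbp1, and at 26.5 FPKM in Yme1l-/-, above Edem1 (19.4 FPKM), Dnajc3 (18.8 FPKM) and Xbp1 (13.9 FPKM).

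**Figure D3:**
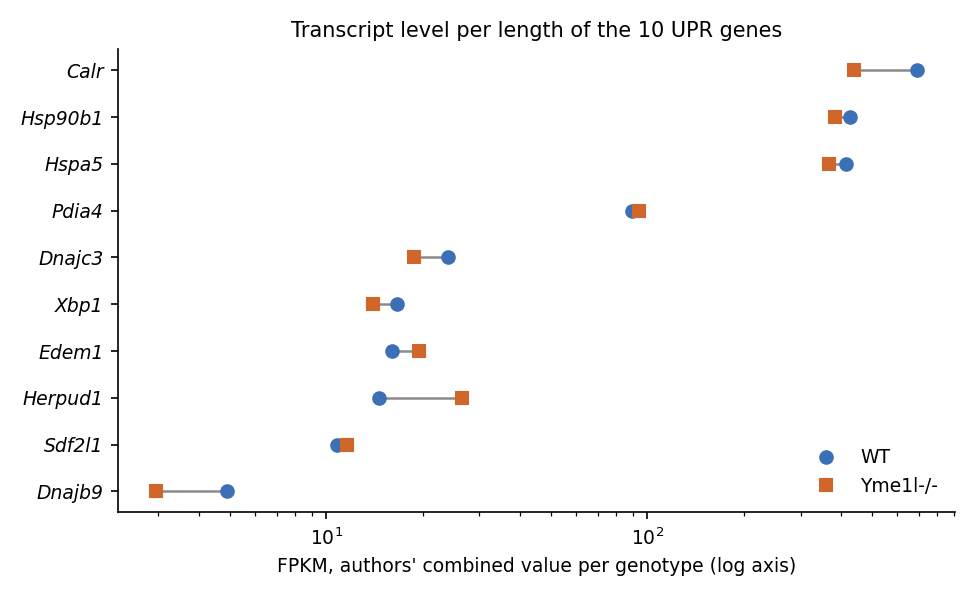
Level of the 10 UPR genes per transcript length, as the authors' combined FPKM of each genotype on a log axis, with WT as blue circles and Yme1l-/- as orange squares. Calr, Hsp90b1 and Hspa5 lie at 369 FPKM or above in both genotypes, and Dnajb9 is the lowest in both.

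Among the chaperones of the ER lumen, BiP and its HSP90 counterpart were slightly lower in Yme1l-/-. Hspa5 (chromosome 2, 34771970 to 34777547, GRCm38) had 862, 862 and 850.1 CPM in the WT libraries and 793, 740 and 721 CPM in the Yme1l-/- libraries. Every Yme1l-/- value was below the lowest WT value, and the Yme1l-/- cultures varied more than the WT cultures, with a coefficient of variation of 4.97% against 0.792%. The log2 fold change was -0.19 ± 0.05 with an adjusted p of 0.00598 by edgeR's quasi-likelihood test, and 72.3% of all loci changed by at least as much. For Hsp90b1, which encodes the chaperone GRP94 (chromosome 10, 86690209 to 86705509), the WT libraries had 1165, 1193 and 1135 CPM and the Yme1l-/- libraries 1049, 1046 and 1031 CPM. The groups did not overlap, and the log2 fold change was -0.16 ± 0.05 with an adjusted p of 0.0101. Under upper-quartile scaling, by which 67.6% of all loci were called, this call was lost, at -0.10 with an adjusted p of 0.0743. With the median of its chromosome removed, Hsp90b1 was called lower at -0.46, and with that of its nearest loci removed at -0.30. A pseudogene on the opposite strand, 1810014B01Rik, overlaps Hsp90b1 and was counted separately with 83 to 421 fragments, against 36711 to 52747 for Hsp90b1.

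Calr, which encodes the lectin chaperone calreticulin of glycoprotein folding (chromosome 8, 84841850 to 84846934), was lower in Yme1l-/- by more than Hspa5 and Hsp90b1, an order that did not hold with regional medians removed. It had 1164, 1096 and 1109 CPM in the WT libraries and 713, 684 and 700.4 CPM in the Yme1l-/- libraries. The Yme1l-/- level was 62.2% of WT, with a log2 fold change of -0.68 ± 0.05, an adjusted p of 3.0e-07 and no overlap between the groups. The membrane-bound lectin chaperone calnexin went the other way, since Canx rose from 622 ± 26.7 to 748 ± 28.2 CPM, although it was called lower once the median of its neighbouring loci was removed. The promoter of Calr shows its ERSE in capitals, on the minus strand relative to the gene.
Calr, chr8:84846882-84847181, minus strand of GRCm38.p6: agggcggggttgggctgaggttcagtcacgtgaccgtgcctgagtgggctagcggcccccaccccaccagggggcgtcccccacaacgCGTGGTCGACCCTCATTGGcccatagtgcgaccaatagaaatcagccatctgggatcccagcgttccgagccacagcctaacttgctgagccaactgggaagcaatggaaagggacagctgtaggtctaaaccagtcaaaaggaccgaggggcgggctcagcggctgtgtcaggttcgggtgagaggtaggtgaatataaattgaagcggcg
Pdia4, a protein disulfide isomerase (chromosome 6, 47796141 to 47813430), had 212, 205 and 198 CPM in WT and 212, 221 and 209 CPM in Yme1l-/-. The groups overlapped, and the log2 fold change of 0.06 had a 95% interval of -0.04 to 0.16. Upper-quartile scaling gave a call in the upward direction, at 0.12 with an adjusted p of 0.0278, whereas both regional fits called it lower, at -0.28. Sdf2l1, which forms a complex with BiP and its cochaperones (chromosome 16, 17130138 to 17132383), was at 11.3, 10.1 and 9.37 CPM in WT and 10.97, 10.5 and 11.7 CPM in Yme1l-/-. Its log2 fold change of 0.11 was not called either, with a 95% interval of -0.10 to 0.31 and 306 to 594 fragments per library.

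The J-domain cochaperones of BiP were both called lower, Dnajb9 no longer so once the median of its nearest loci was removed (0.04, adjusted p 0.714). Dnajb9, which encodes ERdj4 (chromosome 12, 44205559 to 44210326), was the lowest of the 10 genes by FPKM in both genotypes, with 383, 420 and 338 fragments in WT and 242, 339 and 369 in Yme1l-/-. Scaled to depth, this was 11.6, 12.8 and 10.4 CPM in WT and 6.92, 6.72 and 7.24 CPM in Yme1l-/-, without overlap. The log2 fold change was -0.73 ± 0.10 with an adjusted p of 5.3e-05. Dnajc3, which encodes p58IPK, a cochaperone also known as an inhibitor of eIF2 kinases (chromosome 14, 118937976 to 118981697), went from 125, 122 and 124 CPM to 94.1, 96.4 and 98.6 CPM. Its libraries varied little within a genotype (coefficients of variation 1.41% and 2.36%), and the log2 fold change was -0.36 ± 0.04 with an adjusted p of 1.9e-05. The fall was smaller but still called with the median of its chromosome removed (-0.19) and with that of its nearest loci removed (-0.20).

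Both components of ERAD among the 10 genes were higher, Edem1 only slightly. Herpud1 encodes HERP, a membrane protein of the ER that organizes the ubiquitin ligase complex of ERAD (chromosome 8, 94386438 to 94395377). It gave 788, 766 and 848 fragments in WT and 1551, 2282 and 2133 fragments in Yme1l-/-. After scaling these were 23.8, 23.4 and 26.0 CPM in WT and 44.3, 45.3 and 41.9 CPM in Yme1l-/-, or 179.6% of the WT level, with every Yme1l-/- library far above every WT library. The log2 fold change was 0.84 ± 0.06 with an adjusted p of 2.6e-07, and 22.3% of all loci changed by at least as much. The position of the locus in the authors' table also spans the transcripts Gm15889 and Gm15890, which were counted separately and had 0 fragments in all libraries. The promoter of Herpud1 shows the C/EBP-ATF site and the ERSE-II in capitals, in that order.
Herpud1, chr8:94386179-94386478, plus strand of GRCm38.p6: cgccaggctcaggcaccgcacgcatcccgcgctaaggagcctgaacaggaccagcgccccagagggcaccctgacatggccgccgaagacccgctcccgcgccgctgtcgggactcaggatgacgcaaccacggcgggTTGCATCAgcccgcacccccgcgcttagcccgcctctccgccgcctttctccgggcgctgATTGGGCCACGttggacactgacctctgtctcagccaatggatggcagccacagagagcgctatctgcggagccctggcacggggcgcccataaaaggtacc
Edem1, a lectin that hands misfolded glycoproteins to ERAD (chromosome 6, 108828641 to 108859356), had 88.2, 87.7 and 87.1 CPM in WT and 97.6, 98.5 and 102.6 CPM in Yme1l-/-. The rise was small but exceeded the spread between cultures, at 0.18 ± 0.04 on the log2 scale (adjusted p 0.00286). With the median of its chromosome removed, Edem1 was called lower, and with that of its nearest loci removed it was not called.

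The transcription factor Xbp1 (chromosome 11, 5520659 to 5525893) had 32.3, 31.5 and 29.4 CPM in the WT libraries and 26.0, 24.5 and 26.3 CPM in the Yme1l-/- libraries. All Yme1l-/- libraries were lower than all WT libraries, at 82.5% of the WT level. The log2 fold change was -0.28 ± 0.06 with an adjusted p of 0.00145. No ERSE, ERSE-II, UPR element or C/EBP-ATF site was found in its promoter entry.

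Ratios of fragments within a library do not depend on how libraries are scaled, so the other 9 genes were set against Hspa5. The libraries of WT held 0.0276, 0.0272 and 0.0306 fragments of Herpud1 for each fragment of Hspa5, and those of Yme1l-/- held 0.0559, 0.0612 and 0.0581, a 2.05-fold difference of the means. For Calr the ratios were 1.35, 1.27 and 1.31 in WT and 0.8997, 0.925 and 0.972 in Yme1l-/-. The groups did not overlap for 7 of the 9 ratios, against 70.7% of all other tested loci set against Hspa5 in the same way. For these 7, the exact permutation test (two-sided) gave p = 0.1, the smallest that 3 against 3 libraries allow, and an adjusted p of 0.129 over 9 ratios. The ratio of Hsp90b1 to Hspa5, 1.36 ± 0.0255 in WT and 1.39 ± 0.0577 in Yme1l-/-, overlapped between the genotypes (exact permutation p = 0.4), as did that of Xbp1 (exact permutation p = 0.2). In these 7 the ratio was higher in every Yme1l-/- library for Herpud1, Edem1, Pdia4 and Sdf2l1 and lower in every one for Calr, Dnajb9 and Dnajc3. None passed the threshold, which this design cannot reach. By CPM, Hspa5 itself was at 87.5% of WT, and each ratio also carries this fall. Pdia4 and Sdf2l1 were not called by their own levels.

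Whole chromosomes differed between the cell lines, with medians from -0.44 on chromosome 12 to 0.59 on chromosome 15 (log2 fold change), so each gene was also read against its surroundings. The fall of Dnajb9 was no larger than that of the loci around it. Chromosome 12 had a median of -0.44 over 503 loci, and the 20 tested loci nearest to Dnajb9 had a median of -0.78. After subtraction of the median of these neighbours, a fit added once the data had been seen, Dnajb9 was at 0.04 ± 0.10 with an adjusted p of 0.714. Calr lies on chromosome 8, with a median of -0.32 over 705 loci and of -0.51 over its 20 nearest loci. It stayed lower in both fits, at -0.37 ± 0.05 (adjusted p 5.5e-05) with the chromosome median removed and at -0.18 ± 0.05 (adjusted p 0.00759) with the neighbours removed. Herpud1 lies on the same chromosome and rose against it, by 1.16 ± 0.06 with the chromosome median removed and by 1.10 ± 0.06 with the neighbours removed. Xbp1 went the other way from chromosome 11, whose median was 0.36, and was at -0.64 ± 0.06 and -0.73 ± 0.06 in these fits. On chromosome 6, with a median of 0.34, the rise of Edem1 turned into a decrease of 0.16 ± 0.04 (log2, adjusted p 0.00788) with the chromosome median removed and was 0.00 ± 0.04 (adjusted p 0.965) with the neighbours removed. Pdia4 on the same chromosome was at -0.28 ± 0.04 in both. Hspa5, Hsp90b1 and Dnajc3 were called lower in both fits, between -0.46 and -0.17. With chromosome medians removed, 8 of the 10 genes were called lower, against 31.7% of all loci in that fit, and Herpud1 was the only one called higher, against 31.1%. With the neighbours removed, where 63.1% of all loci were called, 6 of the 10 were called lower, against 32.9% of all loci, and Herpud1 was again the only one called higher, against 30.3%.

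**Figure D4:**
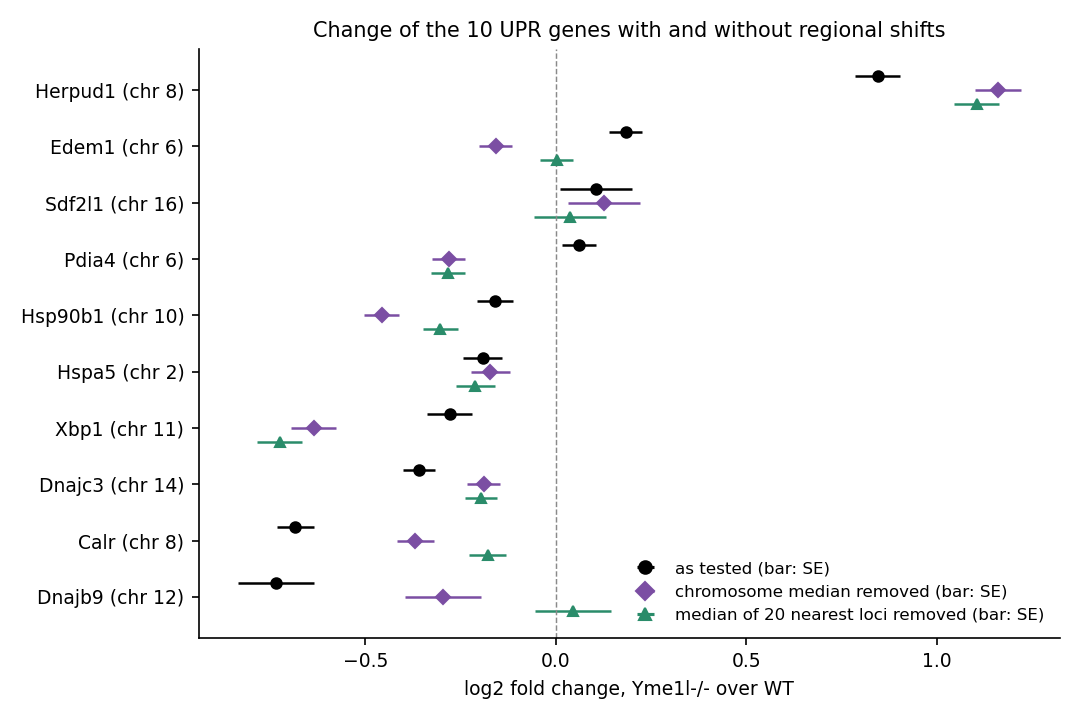
Log2 fold change (Yme1l-/- over WT, horizontal axis) of the 10 UPR genes as tested (black), with the median of the gene's chromosome removed (purple) and with the median of its 20 nearest loci removed (green), with SE as bars. Herpud1 is above 0.8 in all of these fits. Dnajb9, Edem1, Pdia4 and Sdf2l1 cross 0 or have an SE bar that reaches it in at least 1 of them.

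The sensors upstream of these genes and the proteases that release ATF6 were examined next. Of 6 loci, 1 was higher, 2 were lower and 3 were not called, where 67.7% of all loci were called, with a median log2 fold change of -0.10. Ern1, which encodes IRE1, was at 44.6, 48.1 and 48.05 CPM in WT and 51.9, 56.4 and 56.7 CPM in Yme1l-/- (log2 fold change 0.23 ± 0.05, adjusted p 0.00278). With the median of chromosome 11 removed, it was at -0.13 and not called, and with the neighbours removed it was called higher at 0.16 (adjusted p 0.0272). Eif2ak3, which encodes PERK, had 25.6 ± 0.891 CPM in WT and 25.9 ± 1.85 CPM in Yme1l-/-, and with regional medians removed it was called lower, at -0.32 and -0.43. Mbtps1, which encodes S1P, fell from 340.4 ± 7.90 to 231 ± 1.57 CPM, a log2 fold change of -0.56 ± 0.04 with an adjusted p of 2.9e-07. It was still called lower, at -0.24 with the median of chromosome 8 removed and at -0.30 with the neighbours removed. The S2P gene Mbtps2, counted together with Yy2, was at -0.35 ± 0.06 (adjusted p 0.000298), and both regional fits ended that call. Atf6 (-0.08 ± 0.04) and Atf6b (-0.12 ± 0.05) were not called, although Atf6b was called lower in 6 of 15 alternative fits and Atf6 was called lower, at -0.14, with the neighbours removed.

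In the list of further ER chaperones and folding enzymes, 19 loci were tested, of which 12 were lower, 4 were higher and 3 were not called, where 67.7% of all loci were called and 34.1% were lower. The median log2 fold change was -0.19, and 10 of the 19 were called with chromosome medians removed, where 62.8% of all loci were. The lowest were Pdia6, a disulfide isomerase with an ERSE in its promoter entry, Manf, an ER protein released under stress that was counted with Rbm15b, and Ppib, the ER cyclophilin. Pdia6 fell from 344 ± 11.3 to 175 ± 5.46 CPM, a log2 fold change of -0.97 ± 0.04. Manf was at -0.92 ± 0.05 and Ppib at -0.79 ± 0.06. With the neighbours removed these 3 were still called lower, Pdia6 at -0.19, Manf at -0.67 and Ppib at -0.26. The highest were Creld2, an ER disulfide isomerase (0.45 ± 0.06), Cnpy2 (0.34 ± 0.04) and Canx (0.27 ± 0.05). Creld2 and Canx also hold an ERSE, so before regional medians were removed genes with this element were found on both sides. A link between the element and the direction was not tested. None of these 3 rises was kept with the neighbours removed, where Creld2 was at -0.22, Cnpy2 at -0.05 and Canx at -0.29.

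Of 17 loci of the ERAD list, 7 were higher, 5 were lower and 5 were not called, with a median log2 fold change of 0.03. The share called, 70.6%, is close to the 67.7% of all loci. Derl3 had at most 3 fragments in any library and was not tested. Derl1, a subunit of the channel through which ERAD substrates leave the ER, was at 65.2, 67.9 and 62.8 CPM in WT and at 122, 119 and 120 CPM in Yme1l-/-. Its log2 fold change was 0.88 ± 0.05 with an adjusted p of 2.5e-08. The lectin gene Os9 (0.81 ± 0.05) and Derl2 (0.58 ± 0.04) were also higher. These genes lie on chromosomes 15, 10 and 11, whose medians were 0.59, 0.30 and 0.36, and with the neighbours removed Derl1 was at 0.32, Os9 was at 0.11 (adjusted p 0.0632) and Derl2 was called lower at -0.13. Among the lowest were Ubxn4 (-0.32 ± 0.04) and Sel1l (-0.28 ± 0.05), the partner of the ligase HRD1. Sel1l was called higher, at 0.16, with the median of chromosome 12 removed.

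Of 17 loci for translocation into the ER and for signal peptide processing, 8 were lower, 2 were higher and 7 were not called. This is 58.8% called, against 67.7% of all loci, with a median log2 fold change of -0.18. Spcs3, a subunit of the signal peptidase, fell from 589 ± 24.6 to 222 ± 3.89 CPM, a log2 fold change of -1.41 ± 0.05. The translocon-associated Tram1 was at -0.97 ± 0.08 and the translocon subunit Sec61b at -0.49 ± 0.08. With the neighbours removed these 3 were still called lower, Spcs3 at -0.45, Tram1 at -0.67 and Sec61b at -0.29. Sec63, the partner of BiP at the translocon, was at 0.34 ± 0.05 and Sec61g at 0.27 ± 0.10. Both calls were lost in both regional fits, and that of Sec61g also without WT replicate 2 (0.25) or 3 (0.24) and without a filter on low counts (0.27).

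In the list of the PERK-ATF4 arm, all 8 loci were higher, against 33.6% of all loci, and the median log2 fold change was 1.21. Ddit3, which encodes the transcription factor CHOP, was at 10.4, 11.3 and 10.01 CPM in WT and at 43.4, 39.5 and 40.8 CPM in Yme1l-/-. Trib3, a pseudokinase induced by ATF4 and CHOP, went from 9.27, 8.95 and 9.22 CPM to 56.6, 49.6 and 50.2 CPM. In both cases every Yme1l-/- library was more than 3 times above every WT library. Ppp1r15a, whose product dephosphorylates eIF2, rose the least (0.26 ± 0.05), followed by the transcription factor gene Atf3 (0.45 ± 0.10), while Atf4 (0.99 ± 0.05), the stress-induced Sesn2 (1.02 ± 0.07), the asparagine synthetase gene Asns (1.39 ± 0.05) and the glutathione-degrading Chac1 (1.43 ± 0.07) lay between. The C/EBP-ATF letters found in Herpud1 were present in the promoter entries of 4 of the 8 genes, Asns, Atf3, Chac1 and Trib3, and the ERSE in none. Among the 10 UPR genes, the median was -0.18 and Herpud1 was the only gene with these letters. They occur in 3.97% of all promoter entries, and whether they bear on any of these changes was not tested. All 8 were also called higher in both regional fits, against 31.1% of all loci with chromosome medians removed and 30.3% with the neighbours removed, with smaller values for several. Atf4 lies on chromosome 15, whose median was 0.59, and was at 0.40 with the chromosome median removed and at 0.29 with the neighbours removed. Ddit3 was at 1.24 and Ppp1r15a at 0.14 with the neighbours removed, whereas Trib3 was at 2.49. Whether the lists differ as groups was not tested.

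**Figure D5:**
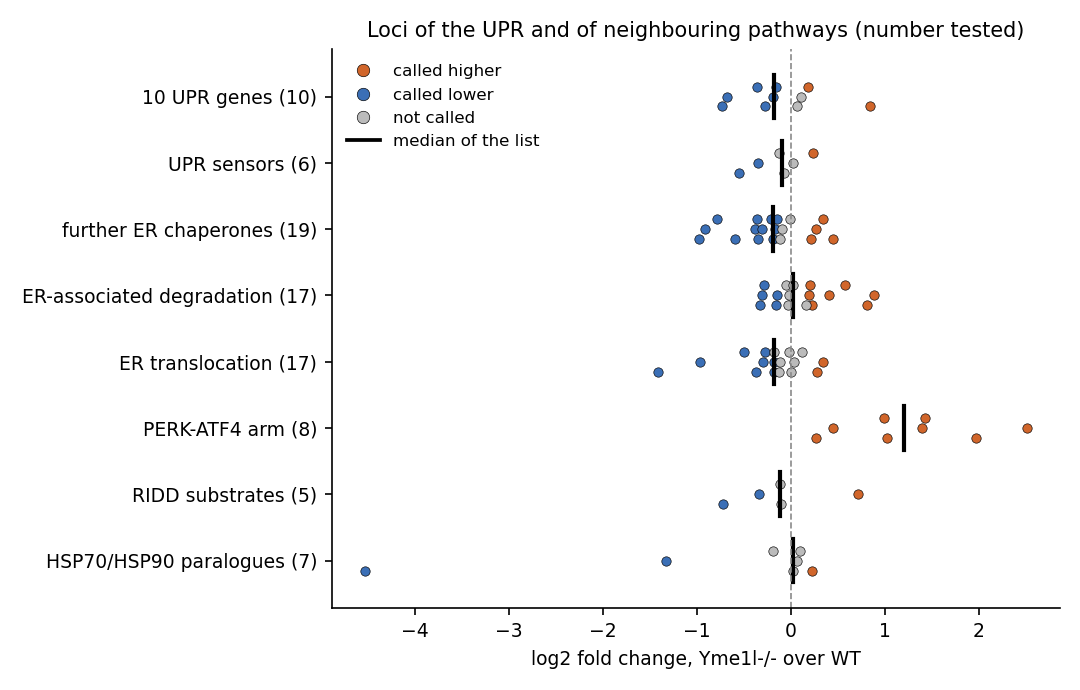
Log2 fold change (Yme1l-/- over WT, horizontal axis) of the tested loci of each list, as points coloured by their call, with the median of the list as a vertical bar and the median of all loci as a dashed line. All 8 loci of the PERK-ATF4 list lie to the right, at 0.26 to 2.51, whereas the other lists spread to both sides.

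Messages described as substrates of regulated IRE1-dependent decay (RIDD), in which IRE1 cleaves mRNAs at the ER, were called in 3 of 5 cases, against 67.7% of all loci. Of these, Bloc1s1, counted with Rdh5, was higher (0.71 ± 0.08), Col6a1 (-0.72 ± 0.06) and Pdgfrb (-0.34 ± 0.08) were lower, and Scara3 and Hgsnat were not called. With chromosome medians removed, the call of Pdgfrb was lost and Hgsnat was called higher, at 0.20. With the neighbours removed all 5 were called, against 63.1% of all loci. Bloc1s1 was still called higher, at 0.27, and Scara3 and Hgsnat were called higher too. Bloc1s1 is the message widely used as a readout of this decay. It had 31.1, 32.0 and 27.1 CPM in WT and 53.95, 47.2 and 46.8 CPM in Yme1l-/-.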

How the data were processed

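Counts were analysed as raw fragment counts deposited per assembled locus. Reads of stranded libraries were aligned by the authors to GRCm38 (mm10) using HISAT2 2.0.4, and transcripts were assembled with StringTie 1.3.3 on Ensembl annotation. The FPKM values are those that the authors combined per genotype with Cuffdiff 2.2.1. Columns of the authors' own comparison (log2 ratio, statistic, p and q) were not used, and how fragments that map to several places or overlap on opposite strands were counted is not given in the sources used here.

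Loci were kept with filterByExpr (minimum count 10) and TMM scaling, and the genotypes were compared in R 4.3.3 with edgeR 4.0.16 (robust glmQLFit, then the two-sided glmQLFTest, no covariates). Adjusted p-values are Benjamini-Hochberg values over all 13867 loci, with calls under 0.05. The SE is the absolute log2 fold change divided by the square root of F. The procedure was tested on simulated data. Gene positions are those of GENCODE M21 on GRCm38, and promoters come from RefSeq. Regional fits subtracted the median log2 fold change of the chromosome, or of the 20 nearest tested loci, as an offset.

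The genes and lists were chosen with earlier results of these data known. Of the sensor, PERK-ATF4, RIDD and paralogue lists all genes are named. Of the other lists the 3 highest and 3 lowest calls are named that reached 10 CPM and did not overlap between genotypes, except for 1 gene that is not reported here. Other alternatives were RLE and upper-quartile scaling, DESeq2 1.42.0, other filters, thinning to the smallest library, a replicate block and leaving out each culture.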

Additional observations from a re-analysis of the deposited data

How the results depend on the processing

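Directions and calls were compared over 15 alternative fits, of which the removal of the median of the 20 nearest loci was chosen after seeing the data. Among the 10 UPR genes the count of calls was 7 to 9. The number called higher was 1 with chromosome medians removed and 1 with the neighbours removed, and under upper-quartile scaling 3 were called higher and 5 lower. The directions of Hspa5, Hsp90b1, Calr, Dnajc3, Sdf2l1, Herpud1, Xbp1 and Yme1l1 were the same in all 15 fits. With chromosome medians removed, 10 of 19 further chaperones and 6 of 7 paralogues were called, against 62.8% of all loci. With the neighbours removed, 5 of 6 sensors, 5 of 5 RIDD messages and 5 of 7 paralogues were called, against 63.1%, and under upper-quartile scaling 5 of 7 paralogues, against 67.6%. That scaling moved the median of all loci to 0.0552 and the share of calls that were higher from 49.6% to 55.1%.

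With chromosome medians removed, the sign turned for Pdia4 (-0.28), Edem1 (-0.16), Ern1 (-0.13), Eif2ak3 (-0.32), Atf6 (0.078), Scara3 (0.0615), Hgsnat (0.20), Hsp90aa1 (0.25), Hsp90ab1 (-0.11), Creld2 (-0.15), Canx (-0.0889), Sel1l (0.16) and Sec61g (-0.0835). With the neighbours removed, it turned for Pdia4 (-0.28), Dnajb9 (0.0446), Eif2ak3 (-0.43), Mbtps2 (0.0499), Scara3 (0.22), Hgsnat (0.25), Hsp90aa1 (0.07), Hsp90ab1 (-0.0166), Creld2 (-0.22), Cnpy2 (-0.0539), Canx (-0.29), Sel1l (0.0629), Derl2 (-0.13) and Sec63 (-0.0139). Each of these fits subtracts the regional median by construction. Among the named genes, leaving out a culture turned the sign of Eif2ak3 only, which ranged from -0.033 to 0.068.

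Whether replicate numbers pair the samples is not stated in the labels. The deviations of same-numbered cultures correlated at 0.14, -0.094 and 0.048. Differently numbered cultures were not compared, so these values cannot decide it. A fit that took this number as a replicate block called 8 of the 10 genes, 2 higher and 6 lower, as without it. Dnajb9 and Sdf2l1 had the fewest fragments of the 10 genes, 242 to 594 per library, and thinning to the smallest library changed neither call. Intervals cover neither clone nor line.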

Other observations

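The relatives of BiP and GRP94 in other compartments were read beside the ER genes. Of 7 loci, Trap1, the mitochondrial HSP90, was higher, at 132 ± 7.07 CPM compared with 113 ± 1.31 CPM in WT (log2 fold change 0.23 ± 0.05). Hspa9, the mitochondrial HSP70, was not called at a log2 fold change of 0.02, with 963 ± 15.9 CPM for WT cultures and 979 ± 25.9 CPM for Yme1l-/- cultures. The cytosolic and constitutive Hspa8 (0.10 ± 0.06) and Hsp90ab1 (0.06 ± 0.05) were not called, nor was Hsp90aa1 (-0.19 ± 0.09). With chromosome medians removed, Hspa8 (0.46), Hspa9 (0.23) and Hsp90aa1 (0.25) were called higher. Hspa1b, the heat-inducible HSP70, had 19.3, 19.5 and 24.5 CPM in WT and 6.32, 8.98 and 9.60 CPM in Yme1l-/-, without overlap. Its near-identical copy Hspa1a was also lower, at 1.26 ± 0.330 against 0.0489 ± 0.0262 CPM, and fragments can be exchanged between these copies.

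Genes that share the promoter letters of the UPR genes, but are not among the 10, were found among both the higher and the lower loci. Over all loci, 33.6% were higher and 34.1% were lower. Of 12 tested genes with an ERSE, 5 were higher and 4 were lower, with a median log2 fold change of 0.02. Of 8 tested genes with an ERSE-II, 3 were higher and 2 were lower. Among 247 tested genes with the C/EBP-ATF letters, 111 were higher and 79 were lower, with a median of 0.12, and 76.9% of them were called against 67.7% of all loci.

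The loci whose profile over the 6 libraries was most like that of Hspa5, by the root mean square difference of centred log2 CPM, were Psma6 (0.0141), Cap1 (0.0151), Psmd6 (0.0153), Ahsa1 (0.0154) and Ctnnbl1 (0.0172). They were taken from 8793 other loci of a single named gene with a mean of at least 10 CPM. Their log2 fold changes ran from -0.22 for Cap1 to -0.18 for Ctnnbl1, near the -0.19 of Hspa5.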
